A study of Mus musculus with 9 samples.

Results

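The nuclear-encoded subunits of the mitochondrial respiratory chain and of the ATP synthase were followed in D2.OR cells, a mouse mammary tumour line, grown in 3D culture in 3 matrices. Members were taken by gene symbol from the array annotation: symbols beginning with Nduf, Uqcr, Cox4i, Cox5, Cox6, Cox7, Cox8 or Atp5, together with Sdha, Sdhb, Sdhc, Sdhd and Cyc1, without pseudogenes and without the Ndufaf assembly factors. The rule used no measured value and gave 83 of the 19938 genes tested: 34 of complex I, 4 of complex II, 9 of complex III, 19 of complex IV and 17 of complex V. All 83 were tested, with no filter on low values.

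The groups were fibrillar collagen I, non-fibrillar collagen I and Matrigel, with 3 arrays each. All 9 arrays held total RNA of the same cell line, and no label named a drug, a transgene or a time point. Matrigel is a gel of basement membrane proteins. The Matrigel group rests on the sample titles alone: their growth label is that of the non-fibrillar collagen cultures, and the series design speaks only of collagen, and the labels name no batch, so any difference in handling between Matrigel and collagen cultures cannot be told apart from the matrix. Nothing in the labels says that replicates came from separate cultures, so the p-values here reflect only how much the arrays of a group scatter, and that scatter may be technical. Because the comparisons share arrays, their counts are not independent.

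The respiratory chain passes electrons from NADH (complex I) and succinate (complex II) through ubiquinone, complex III and cytochrome c to cytochrome c oxidase (complex IV), which reduces oxygen. Complexes I, III and IV pump protons across the inner mitochondrial membrane, and the ATP synthase (complex V) uses the return flow to make ATP. Except for complex II, each complex joins nuclear-encoded subunits with a few made from mitochondrial DNA.

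Values are log2 RMA signals, so a difference of 1 is a doubling. A gene passed when its Benjamini-Hochberg adjusted p over all 19938 genes was under 0.05 in limma. The values of all probe sets spanned 2.11 to 14.08, array medians lay between 5.98 and 6.05, and pairs of arrays correlated at 0.994 to 0.996 within groups and at 0.992 to 0.996 between groups across probe sets. The epithelial keratins Krt8 and Krt18 lay between 12.60 and 13.33 in every array and Krt14 between 11.21 and 11.56, whereas Epcam (5.84 to 6.24), Krt19 (5.14 to 5.45) and Krt5 (5.55 to 5.87) were low in every array. In bulk RNA, fewer cells with a high level and less RNA per cell cannot be told apart.

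Promoter windows are shown for 4 members that were lower on fibrillar collagen. They were picked because their sequence carries recognition letters of regulators of respiratory genes. Over the same span, the windows of several other lower members carry none of the letters given below, Ndufs4, Ndufa1, Ndufb5, Ndufv2 and Ndufab1 among them. The windows run from 250 bases before to 30 bases after the RefSeq start in GRCm38.p6, 5′ to 3′ on the gene's strand. Capitals mark GCATGCGC (the NRF1 core), CCGGAAG (bound by GABPA and other ETS factors), AAGATGGC (YY1) and AAGGTCA (ESRRA), or their reverse complements.
Sdhb promoter, chr4:140961021-140961300, plus strand: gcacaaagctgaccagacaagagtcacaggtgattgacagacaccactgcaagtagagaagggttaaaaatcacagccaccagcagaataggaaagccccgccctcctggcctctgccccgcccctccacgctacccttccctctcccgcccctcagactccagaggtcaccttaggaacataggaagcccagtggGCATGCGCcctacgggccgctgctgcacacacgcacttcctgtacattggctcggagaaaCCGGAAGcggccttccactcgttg
Ndufa11 promoter, chr17:56717512-56717791, plus strand: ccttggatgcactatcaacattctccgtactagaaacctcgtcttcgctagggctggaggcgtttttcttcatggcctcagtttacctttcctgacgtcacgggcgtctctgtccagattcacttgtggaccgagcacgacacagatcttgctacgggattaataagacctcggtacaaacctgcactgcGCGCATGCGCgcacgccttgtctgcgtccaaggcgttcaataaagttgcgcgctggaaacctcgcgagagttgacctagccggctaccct
Atp5pb promoter, chr3:105959234-105959513, minus strand: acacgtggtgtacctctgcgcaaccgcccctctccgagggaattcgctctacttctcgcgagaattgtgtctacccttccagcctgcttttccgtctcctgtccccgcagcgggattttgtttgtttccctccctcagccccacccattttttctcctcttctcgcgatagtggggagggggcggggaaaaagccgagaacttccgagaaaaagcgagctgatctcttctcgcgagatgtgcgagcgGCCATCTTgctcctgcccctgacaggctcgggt
Atp5l promoter, chr9:44920713-44920992, minus strand: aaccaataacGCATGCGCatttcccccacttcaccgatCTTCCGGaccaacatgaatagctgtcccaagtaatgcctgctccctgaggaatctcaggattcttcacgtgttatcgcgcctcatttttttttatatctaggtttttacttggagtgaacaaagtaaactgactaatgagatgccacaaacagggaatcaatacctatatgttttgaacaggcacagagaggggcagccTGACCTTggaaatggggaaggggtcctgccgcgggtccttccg
Sdhb holds the NRF1 letters and, just past the start, the GABPA letters. In Ndufa11 a pair of NRF1 matches overlaps, since these letters are nearly their own reverse complement. Atp5pb carries the YY1 letters at its start, and Atp5l holds the NRF1, GABPA and ESRRA letters.

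RefSeq windows of 300 bases were found for 67 of the 83 members, which gave 72 windows. Both strands were searched. The NRF1 letters occurred in 13.89% of the member windows, against 3.79% of the windows of all genes tested and 2.71% of all windows. The YY1 letters occurred in 13.89% of the member windows, against 3.19% of tested windows and 2.75% of all. The GABPA letters occurred in 23.61%, against 12.08% and 8.86%, and the ESRRA letters in 9.72%, against 3.82% and 4.72%. Among the 22 windows of members that were lower on fibrillar than on non-fibrillar collagen, 4 held the NRF1 letters, 5 the GABPA letters, 5 the YY1 letters and 2 the ESRRA letters, against 6, 12, 5 and 5 of the 50 other member windows. A match describes the letters, not a bound site.

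The first comparison asked how the physical form of collagen I relates to these transcripts. On fibrillar collagen, 26 of the 83 members (31.33%) were lower than on non-fibrillar collagen and 0 were higher. Over all genes, 3.69% were lower and 2.71% were higher. The differences were small and ran one way: the median over the members was -0.16, against 0.008 over all genes, and 75 of the 83 differences were below 0, against 46.54% of all genes. Those that passed ranged from -0.43 (Ndufs5) to -0.155 (Cox7b), at most 1.34-fold. At an unadjusted limma p under 0.05 the counts were 53 members lower and 0 higher, against 2411 lower and 1905 higher of all 19938 genes. In 55 members every fibrillar array lay below every non-fibrillar array, which held for 13.6% of all genes.

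**Figure D1:**
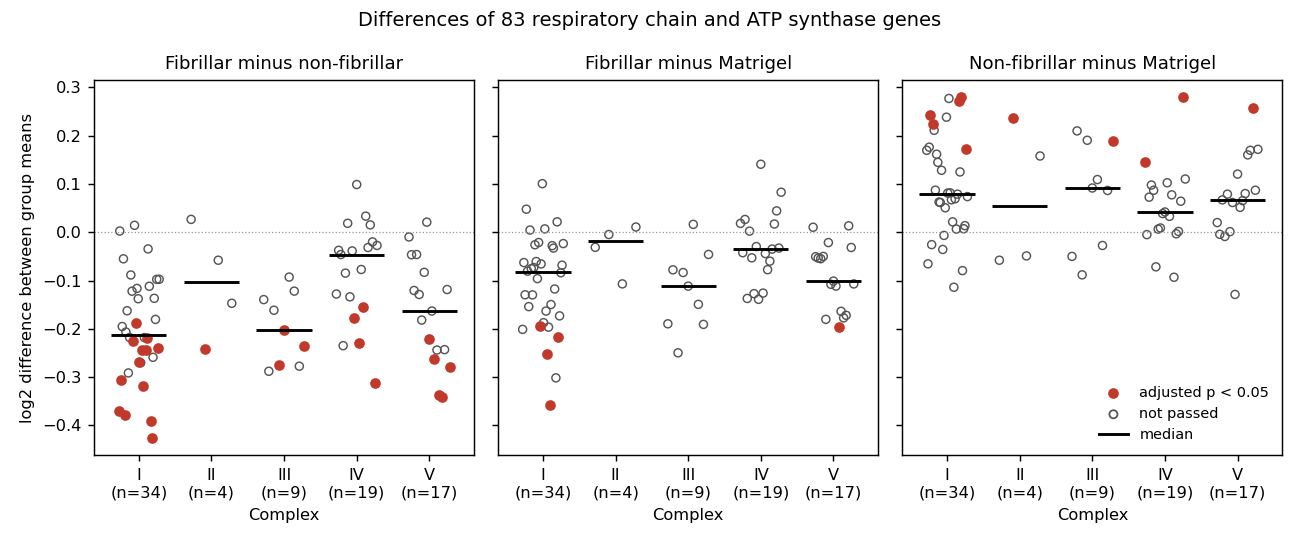
Difference between group means (vertical axis, log2) for each of the 83 members, by complex, in the 3 comparisons. Filled points passed at an adjusted p under 0.05, open points did not, and bars mark the median of each complex. On fibrillar against non-fibrillar collagen 75 of the 83 points lie below 0 and all 26 filled points are negative.

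Most members had a mean signal of 8 or more, 71 of 83 against 6294 of all 19938 genes, and genes with high signal passed more often. In the fit over all genes, 26 of the 71 members with a mean of 8 or more (36.62%) were lower, against 8.71% of the 6294 genes, and in 54 of the 71 every fibrillar array lay below every non-fibrillar array, against 28.9% of the 6294. Of these 71 members, 68 had differences below 0 (95.77%, median -0.19), against 57.44% of the 6294 genes (median -0.026). When only those 6294 genes entered the fit, 45 of the 71 members were lower, against 20.1% of the genes. After centring each array on its median, 29 members were lower, against 4.53% of genes. When the 9 arrays were quantile normalized again, 11 members were lower, against 3.07% of genes, with a median of -0.12 and 74 differences below 0.

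**Figure D2:**
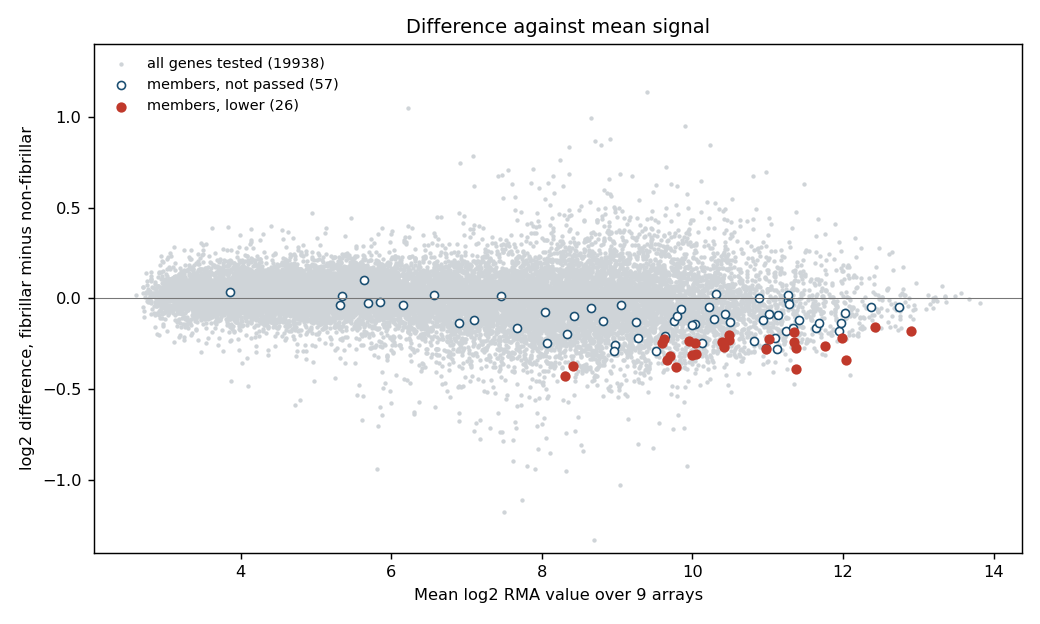
Fibrillar minus non-fibrillar log2 difference (vertical axis) against the mean log2 signal over 9 arrays (horizontal axis). Grey points are all 19938 genes, filled points the 26 members that were lower and open points the 57 that did not pass. The lower members lie at signals above 8, and the 12 members with a mean under 8 lie between -0.16 and 0.10.

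The count fell whichever single array was left out. Without fibrillar array 1, 2 or 3 the count of lower members was 5, 2 or 0, and without non-fibrillar array 1, 2 or 3 it was 3, 0 or 1, while the median difference stayed between -0.193 and -0.135. In the same fits 569, 217 or 150 and 327, 197 or 406 of all genes passed in either direction, against 1277 in the main fit. With the replicate number as a block, 18 members were lower, and 1285 of all genes passed in either direction. The 9 lost calls were Atp5l, Cox6c, Cox7a2, Cox7b, Ndufa11, Ndufb11, Ndufb8, Uqcrc1 and Uqcrq, with adjusted p between 0.0585 and 0.0787, and Uqcr10 was gained (adjusted p = 0.0339).

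Complex I takes electrons from NADH. It holds 13 of the 26 lower members, out of 34 measured (38.24%, against 3.69% of all genes), with a median of -0.21. Its peripheral arm carries the NADH-binding N module and the ubiquinone-binding Q module, and its membrane arm pumps protons. Ndufs4, an accessory subunit of the N module whose human gene is mutated in Leigh syndrome, had 11.29, 11.16 and 11.19 on fibrillar collagen, against 11.56, 11.62 and 11.63 on non-fibrillar collagen and 11.34, 11.34 and 11.31 in Matrigel. Its fibrillar arrays were below all others and its non-fibrillar arrays above all others. The fibrillar minus non-fibrillar difference was -0.39 ± 0.048 (SE, n = 3 each, 1.31-fold, adjusted p = 0.0111). Ndufa1, a small membrane-arm subunit, had 8.18, 8.22 and 8.28 on fibrillar collagen, against 8.51, 8.61 and 8.67 on non-fibrillar collagen. The groups did not overlap, and the difference was -0.37 ± 0.053 (adjusted p = 0.0161). Ndufs5, an accessory subunit on the intermembrane space side, showed the largest difference of any member, -0.43 ± 0.062 (1.34-fold, adjusted p = 0.0171), with 8.16, 7.93 and 8.11 on fibrillar collagen against 8.52, 8.49 and 8.47 on non-fibrillar collagen.

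The calls in complex I at the adjusted threshold were spread unevenly over its modules, without a test of that difference. In the membrane arm 10 of 19 members were lower (median -0.22): Ndufa1, Ndufs5, Ndufb5, Ndufab1, Ndufb8, Ndufc2, Ndufc1, Ndufa11, Ndufb7 and Ndufb11. Ndufab1 is also the mitochondrial acyl carrier protein. In the N module 3 of 10 were lower (median -0.23), namely Ndufs4, Ndufa2 (-0.38 ± 0.057, adjusted p = 0.0182) and Ndufv2, and in the Q module 0 of 5 (median -0.14), although all 5 had an unadjusted limma p under 0.05. At that unadjusted p, 8 of 10 were lower in the N module and 13 of 19 in the membrane arm, so the order of the modules was reversed. Of the 6 core subunits measured, which hold the redox centres, Ndufv2, with an iron-sulphur cluster, was lower (-0.24 ± 0.036, adjusted p = 0.0184), while 12 of the 28 accessory subunits were lower. At an unadjusted limma p under 0.05, 5 of the 6 core and 21 of the 28 accessory subunits were lower. Ndufs1, the largest core subunit, had 9.05, 9.05 and 8.99 on fibrillar collagen against 9.05, 9.09 and 9.06 on non-fibrillar collagen (-0.03 ± 0.036, adjusted p = 0.624). Its values overlapped, as did those of Ndufa10 (0.003 ± 0.034) and Ndufb10 (0.01 ± 0.037).

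**Figure D3:**
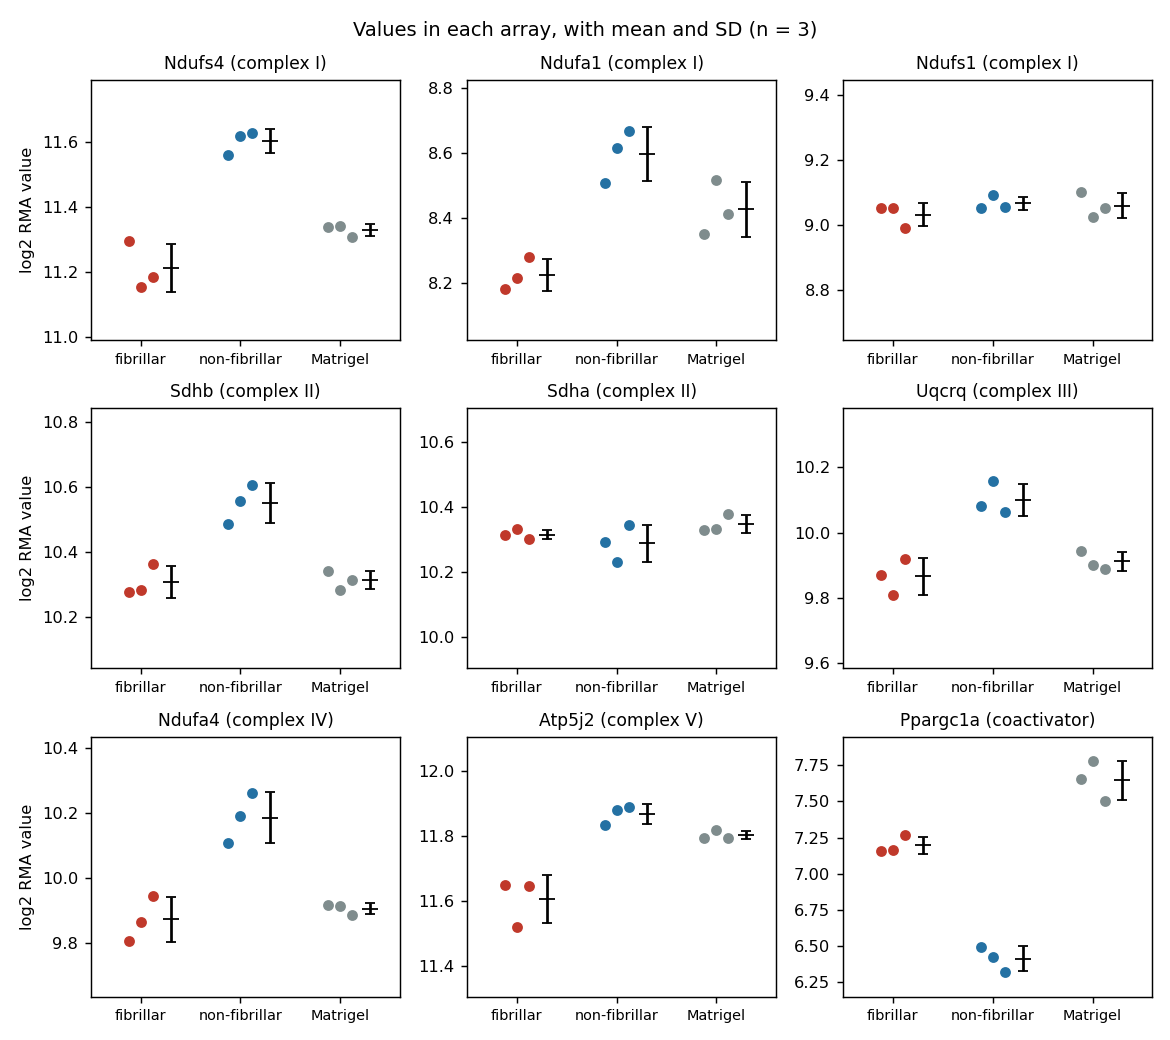
Log2 RMA value (vertical axis) of 8 members and of the coactivator gene Ppargc1a in each array of the 3 groups (horizontal axis), with the mean and SD of each group (n = 3). The vertical span is the same in the 8 member panels and wider for Ppargc1a. Ndufs1 and Sdha overlap between groups, the other 6 members are lower in fibrillar than in non-fibrillar arrays, and Ppargc1a is higher.

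Complex II, succinate dehydrogenase, is also an enzyme of the citric acid cycle. Sdhb, its iron-sulphur subunit, had 10.28, 10.28 and 10.36 on fibrillar collagen, against 10.49, 10.56 and 10.61 on non-fibrillar collagen and 10.34, 10.28 and 10.31 in Matrigel. The fibrillar arrays lay below the non-fibrillar arrays and overlapped the Matrigel arrays, and the difference between the collagens was -0.24 ± 0.046 (adjusted p = 0.0343). Sdha, the flavoprotein that binds succinate, had 10.31, 10.33 and 10.30 on fibrillar collagen against 10.29, 10.23 and 10.34 on non-fibrillar collagen (0.03 ± 0.041, adjusted p = 0.747). The membrane anchor Sdhd had 9.85, 9.91 and 10.07 on fibrillar collagen, against 9.96, 10.04 and 10.27 on non-fibrillar collagen, which overlapped (adjusted p = 0.427). The other anchor, Sdhc, overlapped as well (-0.06 ± 0.052).

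Complex III transfers electrons from ubiquinol to cytochrome c. In all 9 of its measured members every fibrillar array lay below every non-fibrillar array, with a median of -0.20. This separation held for 13.6% of all genes and 28.9% of those with a mean of 8 or more. Of the 9, 3 passed (33.33%, against 3.69% of all genes): Uqcrq, Uqcrc1 and Uqcrb. The small subunit Uqcrq had 9.87, 9.81 and 9.92 on fibrillar collagen against 10.08, 10.16 and 10.06 on non-fibrillar collagen (-0.24 ± 0.046, adjusted p = 0.0354, and 0.0703 with the replicate block). Uqcrc1, a core protein, had 10.40, 10.33 and 10.41 on fibrillar collagen against 10.53, 10.62 and 10.59 on non-fibrillar collagen (-0.20 ± 0.042, adjusted p = 0.041, and 0.0734 with the block). The collagen groups did not overlap in either gene. The redox subunits Cyc1, the cytochrome c1, and Uqcrfs1, the Rieske protein, differed by -0.14 ± 0.048 and -0.12 ± 0.043 and did not pass.

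Complex IV had 4 of 19 members lower (21.05%, against 3.69% of all genes): Ndufa4, Cox6c, Cox7a2 and Cox7b. Ndufa4, once assigned to complex I and now known as a cytochrome c oxidase subunit, had 9.81, 9.87 and 9.95 on fibrillar collagen, against 10.11, 10.19 and 10.26 on non-fibrillar collagen and 9.92, 9.91 and 9.89 in Matrigel. The difference between the collagens was -0.31 ± 0.056 (adjusted p = 0.0294), and the groups did not overlap. Cox6c had 12.80, 12.82 and 12.75 on fibrillar collagen against 12.94, 12.99 and 12.99 on non-fibrillar collagen (-0.18 ± 0.037, adjusted p = 0.0429, and 0.0701 with the replicate block). Cox5a, with -0.05 ± 0.038, and Cox8a, with -0.03 ± 0.052, did not pass.

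Complex IV also has isoforms used in muscle, testis, lung or hypoxic cells. The 8 alternative isoforms measured (Cox4i2, Cox6a2, Cox6b2, Cox7a1, Cox7b2, Cox8b, Cox8c and Ndufa4l2) had mean signals between 3.86 and 6.57 and none passed in any of the 3 comparisons, nor did any reach an unadjusted limma p under 0.05. Their median fibrillar minus non-fibrillar difference was -0.002. Cox7a1, the heart and muscle isoform, showed the largest positive difference of any member, 0.10 ± 0.08 (adjusted p = 0.529), with 5.70, 5.62 and 5.85 on fibrillar collagen against 5.54, 5.56 and 5.75 on non-fibrillar collagen, which overlapped. Without the 8 isoforms, 4 of 11 complex IV members were lower, with a median of -0.13. Cox4i2, which replaces Cox4i1 in lung and under low oxygen, had 6.08, 6.16 and 6.16 on fibrillar collagen against 6.16, 6.19 and 6.16 on non-fibrillar collagen. Its partner Cox4i1 had 10.44, 10.47 and 10.48 on fibrillar collagen against 10.57, 10.60 and 10.59 on non-fibrillar collagen, without overlap, at an adjusted p of 0.0764.

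The other muscle isoforms, Cox6a2 (6.57, 6.57 and 6.52 on fibrillar collagen against 6.57, 6.46 and 6.57 on non-fibrillar collagen) and Cox8b (5.31, 5.18 and 5.57 on fibrillar collagen against 5.31, 5.29 and 5.40 on non-fibrillar collagen), overlapped. Cox6b2, Cox7b2 and Cox8c, known from testis, had ranges of 5.19 to 5.41, 3.79 to 3.91 and 5.84 to 5.87 on fibrillar collagen, against 5.31 to 5.39, 3.78 to 3.87 and 5.86 to 5.91 on non-fibrillar collagen. Ndufa4l2, a target of hypoxia signalling, had 5.68, 5.67 and 5.76 on fibrillar collagen against 5.84, 5.64 and 5.72 on non-fibrillar collagen. Of the 7 housekeeping partners of these isoforms, 3 were lower on fibrillar collagen (Ndufa4, Cox7a2 and Cox7b) and Cox4i1, Cox6a1, Cox6b1 and Cox8a did not pass. Cox7a2 had 10.42, 10.32 and 10.34 on fibrillar collagen against 10.62, 10.64 and 10.51 on non-fibrillar collagen, and Cox7b had 12.32, 12.37 and 12.35 on fibrillar collagen against 12.49, 12.52 and 12.49 on non-fibrillar collagen. Cox6a1 had 10.94, 11.03 and 11.00 on fibrillar collagen against 11.04, 11.06 and 11.12 on non-fibrillar collagen, and Cox6b1 had 11.61, 11.55 and 11.63 on fibrillar collagen against 11.69, 11.75 and 11.75 on non-fibrillar collagen. These 4 partners did not overlap between the collagens, whereas Cox8a (11.28, 11.18 and 11.33 on fibrillar collagen against 11.26, 11.27 and 11.36 on non-fibrillar collagen) did. The list of partners also held Atp5l of complex V, which was lower, and Uqcrh, the hinge protein of complex III, which did not pass. Uqcrh had 11.13, 10.85 and 10.90 on fibrillar collagen against 11.29, 11.24 and 11.19 on non-fibrillar collagen.

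In the ATP synthase the F1 part, which includes the catalytic head, and the rest of the enzyme gave different counts, though that difference was not tested. Over all genes 3.69% were lower. The 5 F1 subunits had 0 calls, 1 unadjusted limma p under 0.05 and a median of -0.05. Atp5b, the catalytic beta subunit, had 12.38, 12.32 and 12.31 on fibrillar collagen against 12.38, 12.37 and 12.40 on non-fibrillar collagen. Atp5a1, the alpha subunit, differed by -0.01 ± 0.042. Of the 4 peripheral stalk subunits, Atp5pb and Atp5h were lower. Atp5pb, the b subunit, had 10.90, 10.89 and 10.73 on fibrillar collagen, against 11.14, 11.13 and 11.09 on non-fibrillar collagen (-0.28 ± 0.054, adjusted p = 0.0343). Its groups did not overlap. Of the 5 small membrane subunits outside the c ring, Atp5j2, Atp5l and Atp5md were lower, with a median of -0.26 over the 5, and the 3 genes of the c ring had 0 calls and 1 unadjusted limma p under 0.05. Atp5j2, the f subunit, had 11.65, 11.52 and 11.65 on fibrillar collagen against 11.83, 11.88 and 11.89 on non-fibrillar collagen (-0.26 ± 0.047, adjusted p = 0.0292). All fibrillar arrays lay below all non-fibrillar arrays in 1 of the 5 F1 subunits (Atp5c1), 3 of the 4 peripheral stalk subunits, all 5 small membrane subunits and 1 of the 3 c-ring genes. This separation held for 13.6% of all genes and 28.9% of those with a mean of 8 or more.

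Several members have more than 1 probe set. These 17 genes have 42 probe sets, and on fibrillar against non-fibrillar collagen all 25 probe sets that were not used also had negative differences, with a median of -0.25. With every probe set tested separately, no other probe set passed for Atp5h, Atp5md, Atp5pb, Cox6c, Cox7b, Ndufa11, Ndufb11 or Uqcrb. That of Atp5pb had -0.14 ± 0.045 (limma adjusted p = 0.141). The other probe sets of Atp5l, Ndufab1, Ndufc1 and Cox5b passed. Atp5l, the g subunit, has 6 probe sets with differences between -0.34 and -0.31, which may read near-identical copies of 1 sequence and are no independent evidence. Probe sets annotated to Cox7c, Ndufb4 or Ndufs5 together with a copy were not used, and the values of genes with such copies, Ndufs5 among them, are less certain.

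Averaged over the 83 members, the level relative to each gene's mean of 9 arrays was -0.08, -0.11 and -0.05 in the fibrillar arrays, 0.05, 0.08 and 0.11 in the non-fibrillar arrays and 0.02, -0.01 and -0.005 in the Matrigel arrays. Every fibrillar array was thus below every Matrigel array and every non-fibrillar array above every Matrigel array. The order of the group means was fibrillar, Matrigel, non-fibrillar from low to high in 49 members, and Matrigel, fibrillar, non-fibrillar in 14. The order fibrillar, non-fibrillar, Matrigel held in 12 members, non-fibrillar, fibrillar, Matrigel in 6, and Matrigel, non-fibrillar, fibrillar in 2.

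**Figure D4:**
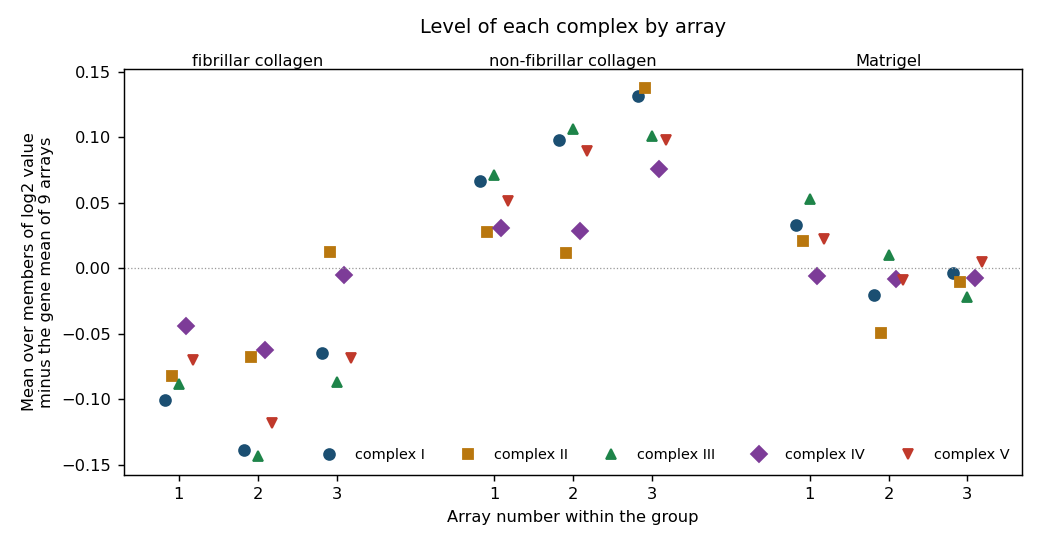
Mean over the members of each complex of the log2 value minus the gene's mean of 9 arrays (vertical axis), for each array (horizontal axis) of the 3 groups. Complexes I, III, IV and V are below 0 in all 3 fibrillar arrays, complex II is at 0.01 in fibrillar array 3, and all 5 complexes are above 0 in the non-fibrillar arrays.

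Against Matrigel, 5 members were lower on fibrillar collagen and 0 were higher, where 2.37% of all genes were lower. At an unadjusted limma p under 0.05, 30 members were lower and 0 higher, against 2026 lower and 1580 higher of all 19938 genes. At the adjusted threshold 473 of all genes were lower and 289 higher, and after a second quantile normalization 366 lower and 373 higher, with 2 members lower. The median over the members was -0.07, and every fibrillar array lay below every Matrigel array in 34 members, against 11.3% of all genes. In the fit over all genes, 5 of the 71 members with a mean of 8 or more (7.04%) were lower, against 4.56% of the 6294 genes at that signal, so the 5 calls lie near the background. In 34 of the 71 every fibrillar array lay below every Matrigel array, against 21.7% of the 6294. Among those genes fitted alone, 16 of the 71 members were lower, against 10.7%. Leaving out any 1 of the 6 arrays of the pair left 1 or 2 lower members: 2 without Matrigel array 3, and 1 without each of the other arrays.

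The lower members were Ndufc1, Ndufb8, Ndufs7, Ndufb11 and Atp5j2. Ndufc1, a membrane-arm subunit of complex I, had 9.39, 9.43 and 9.36 on fibrillar collagen, against 9.84, 9.75 and 9.67 in Matrigel (-0.36 ± 0.056, 1.28-fold, adjusted p = 0.00828). It passed whichever single array was left out, whereas Ndufb8 (9.56, 9.41 and 9.55 on fibrillar collagen against 9.79, 9.74 and 9.75 in Matrigel, -0.25 ± 0.053, adjusted p = 0.0311) and Atp5j2 (-0.20 ± 0.045, adjusted p = 0.0435) did not pass in any of the 6 cases. Ndufs7, the core subunit with the last iron-sulphur cluster before ubiquinone, differed by -0.22 ± 0.049 (adjusted p = 0.0412). All 5 were below their Matrigel values without overlap. With every probe set tested separately, the other probe set of Ndufc1 did not pass against Matrigel (-0.24 ± 0.061, limma adjusted p = 0.0688). Nor did that of Ndufb11 (-0.18 ± 0.045, adjusted p = 0.0585).

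Other leading members of each complex did not pass against Matrigel. Cyc1 had 9.99, 9.87 and 9.93 on fibrillar collagen against 10.16, 10.11 and 10.09 in Matrigel (adjusted p = 0.0625). Uqcr11, a small complex III subunit, had 11.26, 11.11 and 11.22 on fibrillar collagen against 11.58, 11.43 and 11.32 in Matrigel (adjusted p = 0.073). Neither gene's groups overlapped. Cox6c had 12.80, 12.82 and 12.75 on fibrillar collagen against 12.93, 12.94 and 12.93 in Matrigel (adjusted p = 0.079), and Cox6b1 had 11.61, 11.55 and 11.63 on fibrillar collagen against 11.75, 11.73 and 11.69 in Matrigel (adjusted p = 0.132). Atp5l had 9.56, 9.48 and 9.44 on fibrillar collagen against 9.71, 9.65 and 9.65 in Matrigel (adjusted p = 0.154). These too did not overlap, while Sdhc (adjusted p = 0.408), Sdha (adjusted p = 0.736) and Cox7a1, the largest positive difference (0.14 ± 0.079, adjusted p = 0.388), overlapped.

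Against the same Matrigel arrays, 10 members were higher on non-fibrillar collagen and 0 were lower, where 6.75% of all genes were higher and 7.07% were lower. At an unadjusted limma p under 0.05, 22 members were higher and 1 was lower, against 2571 higher and 2517 lower of all 19938 genes. Among genes with a mean of 8 or more fitted alone, 20 of 71 members were higher, against 22.8% of the genes, a share near the background, so the count is no result about these members. In the fit over all genes the shares at that signal were 14.08% of the 71 members and 14.98% of the 6294 genes. The median was 0.07, and every non-fibrillar array lay above every Matrigel array in 32 members, against 14.4% of all genes. At a mean of 8 or more this held for 31 of the 71 members and 29.2% of the 6294 genes. Leaving out 1 array of the pair left 3 to 10 higher members, with 3 without Matrigel array 2, 5 without Matrigel array 3, 4 without non-fibrillar array 2 and 5 without non-fibrillar array 3.

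The 10 were Ndufs4, Ndufa4, Sdhb, Ndufs6, Ndufa12, Uqcrq, Atp5mpl, Ndufv2, Cox4i1 and Ndufa2. Of these, Ndufs4 (0.27 ± 0.046, adjusted p = 0.00378), Ndufa4 (0.28 ± 0.052, adjusted p = 0.00613) and Sdhb (0.24 ± 0.045, adjusted p = 0.00729) passed whichever single array was left out. Ndufs6, an N-module subunit, showed the largest difference, with 9.06, 9.16 and 9.22 on non-fibrillar collagen against 8.95, 8.82 and 8.83 in Matrigel (0.28 ± 0.061, adjusted p = 0.0137). Uqcrq had 10.08, 10.16 and 10.06 on non-fibrillar collagen against 9.94, 9.90 and 9.89 in Matrigel (adjusted p = 0.0205), and Atp5mpl, a small ATP synthase subunit, had 10.22, 10.34 and 10.33 on non-fibrillar collagen against 10.08, 10.03 and 10.01 in Matrigel (adjusted p = 0.0219). Atp5g3, a c-ring gene, had the most negative difference, with 11.23, 11.16 and 11.25 on non-fibrillar collagen against 11.38, 11.34 and 11.30 in Matrigel (-0.13 ± 0.046, adjusted p = 0.106).

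Uqcr10, a small complex III subunit, had 9.01, 9.15 and 9.23 on non-fibrillar collagen against 8.96, 8.96 and 8.84 in Matrigel (adjusted p = 0.0694). Atp5pb had 11.14, 11.13 and 11.09 on non-fibrillar collagen against 11.00, 10.91 and 10.93 in Matrigel (adjusted p = 0.0578). Sdhd, with 9.96, 10.04 and 10.27 on non-fibrillar collagen against 9.94, 9.91 and 9.95 in Matrigel, did not pass (adjusted p = 0.274). The groups of these 3 genes did not overlap.

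Genes that respond to low oxygen moved with this comparison: 8 of 13 on a hypoxia list were higher on non-fibrillar collagen than in Matrigel and 0 were lower (10 and 0 at an unadjusted limma p under 0.05), and the list's median was 0.39. Over all genes 6.75% were higher there, and 14.93% of those with a mean of 8 or more. At an unadjusted limma p under 0.05, 2571 of all 19938 genes were higher. The 8 included Higd1a (0.48 ± 0.082, adjusted p = 0.00384), a protein found with the respiratory chain, the glucose transporter Slc2a1 (0.57 ± 0.097, adjusted p = 0.00387) and Bnip3 (0.79 ± 0.16, adjusted p = 0.00958), a mitophagy receptor. Between fibrillar and non-fibrillar collagen all 13 differences were below 0 (median -0.19) and Higd1a passed (-0.38 ± 0.083, adjusted p = 0.0485). The list's mean relative level was 0.18, 0.03 and 0.45 in the non-fibrillar arrays against -0.23, -0.21 and -0.19 in the Matrigel arrays, and -0.05, -0.06 and 0.09 in the fibrillar arrays. Its part in the members' values was not tested.

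Other large complexes of the cell were compared by their counts. On fibrillar against non-fibrillar collagen, 25 of 77 mitochondrial ribosomal proteins (32.47%, median -0.21) and 11 of 34 proteasome subunits (32.35%, median -0.18) were lower, shares close to the 31.33% of the members, so the count does not set the respiratory chain apart. Of 53 cytosolic ribosomal proteins, 2 were lower (3.77%, median -0.09). Differences were below 0 in 90.36% of the members, 94.81% of mitochondrial ribosomal proteins, 100% of proteasome subunits and 94.34% of cytosolic ribosomal proteins. Every fibrillar array lay below every non-fibrillar array in 55, 58, 29 and 31 of them. At an unadjusted limma p under 0.05, 53, 57, 26 and 19 were lower and 0 were higher. The direction thus does not set the members apart either. On non-fibrillar collagen against Matrigel, 12.05% of the members were higher, against 27.27% of mitochondrial ribosomal proteins, 44.12% of proteasome subunits and 30.19% of cytosolic ribosomal proteins. On fibrillar collagen against Matrigel, 5 of the 83 members (6.02%) were lower, against 2 of the 77 mitochondrial ribosomal proteins (2.6%), 0 of the 34 proteasome subunits and 0 of the 53 cytosolic ribosomal proteins. At an unadjusted limma p under 0.05, 4 proteasome subunits and 0 cytosolic ribosomal proteins were lower there, and 18 mitochondrial ribosomal proteins were. None of these differences between gene groups was tested.

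**Figure D5:**
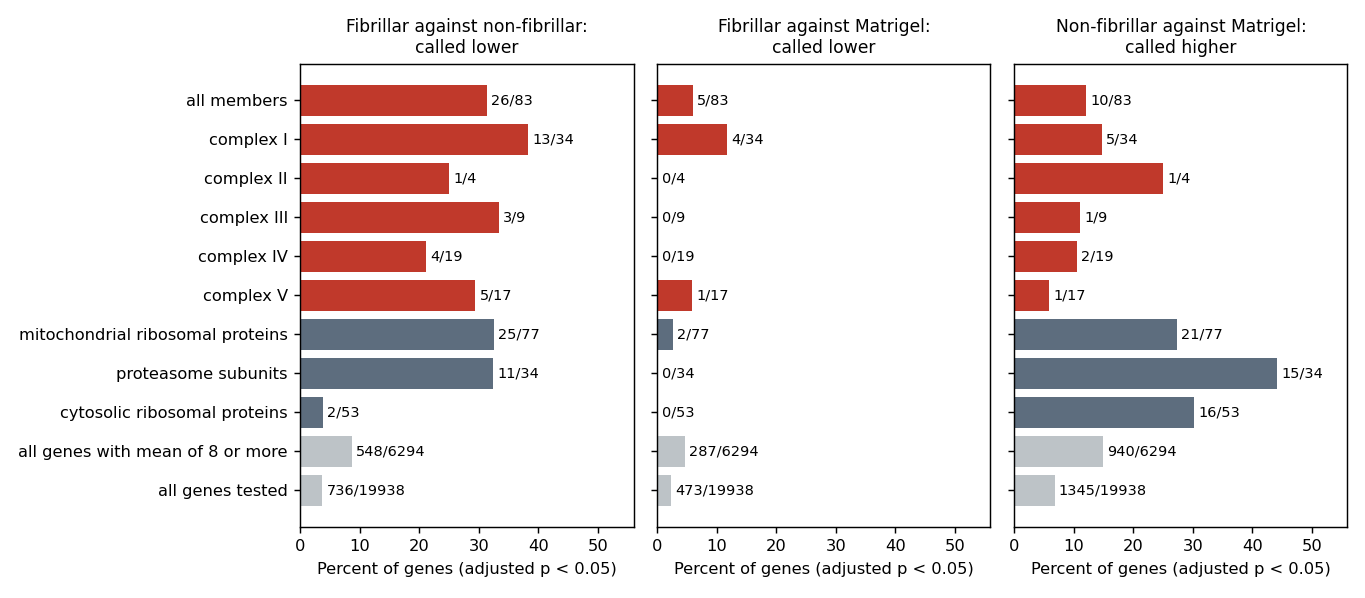
Percent of genes that passed at an adjusted p under 0.05 (horizontal axis) in the named direction, for the members, each complex, 3 other gene groups and all genes, with counts beside the bars. The bars of the members (26/83), mitochondrial ribosomal proteins (25/77) and proteasome subunits (11/34) are of like length in the first panel and stand above all genes tested (736/19938).

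Genes that build and regulate the chain were read from lists. Over all genes 3.69% were lower on fibrillar than on non-fibrillar collagen, and 8.71% of those with a mean of 8 or more. At an unadjusted limma p under 0.05, 2411 of all 19938 genes were lower and 1905 higher. Of 42 assembly factors, 5 were lower on fibrillar than on non-fibrillar collagen and 0 were higher (21 and 1 at an unadjusted limma p under 0.05), with a median of -0.17. Sdhaf4, which helps assemble complex II, had 6.57, 6.48 and 6.73 on fibrillar collagen against 7.15, 7.10 and 7.41 on non-fibrillar collagen (-0.63 ± 0.098, adjusted p = 0.0198). The others were Atpaf1 (-0.21 ± 0.038) and Atpaf2, which assemble the F1 head, Sdhaf2 and Uqcc2 (-0.29 ± 0.0535). Of 12 genes that copy or transcribe mitochondrial DNA, Tefm, an elongation factor, was lower (-0.33 ± 0.062, adjusted p = 0.0335). Of 7 genes of the cristae-shaping MICOS complex and Opa1, Micos10 (-0.27 ± 0.048, adjusted p = 0.0293) and Chchd3 (-0.25 ± 0.051, adjusted p = 0.0393) were lower. Atpif1, the inhibitor of the ATP synthase, was lower (-0.20 ± 0.037, adjusted p = 0.0321) and Cycs, cytochrome c, did not pass (adjusted p = 0.114). Of 19 genes of ubiquinone synthesis and carriers, the adenine nucleotide carrier Slc25a4 was lower (-0.16 ± 0.035, adjusted p = 0.0461). The mitochondrially encoded genes measured, ND3 (-0.20 ± 0.081) and COX2 (0.03 ± 0.067), did not pass.

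Among 11 transcriptional regulators 1 passed between fibrillar and non-fibrillar collagen, in the opposite direction to the subunits that passed there. Ppargc1a, a coactivator known to raise respiratory gene transcription in muscle and brown fat, had 7.16, 7.16 and 7.27 on fibrillar collagen, against 6.49, 6.42 and 6.32 on non-fibrillar collagen and 7.65, 7.78 and 7.50 in Matrigel. The 3 groups did not overlap. It was higher on fibrillar than on non-fibrillar collagen (0.79 ± 0.057, 1.72-fold, adjusted p = 0.00413), lower on fibrillar collagen than in Matrigel (-0.45 ± 0.073, adjusted p = 0.01) and lower on non-fibrillar collagen than in Matrigel (-1.24 ± 0.073, 2.35-fold, adjusted p = 1.09e-05). Ppargc1b had the same order of means and passed on non-fibrillar collagen against Matrigel (-0.58 ± 0.108, adjusted p = 0.00626). Nrf1, Gabpa, Esrra and Yy1, whose letters were searched above, differed by -0.07 ± 0.046, -0.08 ± 0.07, 0.05 ± 0.044 and -0.06 ± 0.045 between fibrillar and non-fibrillar collagen and did not pass.

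Markers of other cell types were low except for single genes. Mean signals over 10 macrophage markers were 5.49 to 5.56 in fibrillar arrays, 5.46 to 5.49 in non-fibrillar arrays and 5.59 to 5.61 in Matrigel arrays, with Adgre1, Csf1r and Itgam between 3.82 and 4.84 in every array. Cd68, a lysosomal protein, was the exception, higher on fibrillar than on non-fibrillar collagen (0.83 ± 0.081, adjusted p = 0.00673), and Cd14 was lower (-0.37 ± 0.079, adjusted p = 0.0466). Means over 9 fibroblast markers were 6.31 to 6.42 in fibrillar, 6.22 to 6.31 in non-fibrillar and 6.36 to 6.48 in Matrigel arrays, with Dcn and Lum under 5 and Pdgfra higher on fibrillar collagen (0.67 ± 0.095, adjusted p = 0.0153). Between the collagens the 9 muscle, 5 endothelial and 4 adipocyte markers had median differences of 0.06, 0.02 and 0.09, and 0 passed, with 0, 1 and 2 at an unadjusted limma p under 0.05. Against Matrigel, Cd68 was lower on fibrillar collagen (-0.55 ± 0.081, adjusted p = 0.0068) and on non-fibrillar collagen (-1.38 ± 0.081, adjusted p = 1.09e-05), and so was Fabp4, an adipocyte marker (-0.81 ± 0.083, adjusted p = 0.000902, and -1.02 ± 0.083, adjusted p = 6.96e-05). On non-fibrillar collagen Pdgfra (-1.01 ± 0.094, adjusted p = 0.000152) and the endothelial receptor Kdr (-0.47 ± 0.085, adjusted p = 0.00553) were lower than in Matrigel, and Cd14 was higher (0.28 ± 0.073, adjusted p = 0.0331). No other gene of these 5 lists passed against Matrigel. The part of these genes in the members' values was not tested.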

How the data were processed

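Biotin-labelled RNA of the 9 samples was hybridised to Affymetrix gene arrays, 1 array a sample. The authors deposited log2 values of 35512 probe sets; RMA and Affymetrix Power Tools are named in the submitters' processing notes, with versions not given in the sources used here. RMA subtracts background and equalises the arrays' distributions, so a shift of all genes cannot be seen. The platform annotation gave 21789 probe sets 1 gene symbol, 1621 several and 12102 none here; genes came from single-symbol probe sets, using the one with the highest mean, and 21698 matched the current RefSeq table. No array duplicated another: the closest pair differed by 0.127 (mean absolute log2 difference).

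Group means were compared with limma 3.58.1 in R 4.3.3 and Benjamini-Hochberg adjustment over all 19938 genes. The collagen comparison used its 6 arrays; those with Matrigel used all 9. The scripts were tested on simulated data. The alternatives were array weights, each array left out, the arrays in the fit, filters at means of 6 and 8, quantile normalization again, centring, the replicate block, probe set handling, the variance prior and a threshold of 0.01. Same-numbered fibrillar and non-fibrillar arrays deviated together (r = 0.221, 0.143 and 0.242 across genes), though no label states a pairing. The main fit did not use the numbers, so its calls, SE and p-values leave any pairing out. The fit with the replicate block, an alternative, takes the numbers as pairs. Promoter sequences are RefSeq's (GRCm38.p6). The number of arrays limits the precision.

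Members and lists were chosen with earlier results of these data known. Named members are, per comparison and complex, the 2 smallest p-values, the largest difference each way and the alternative isoforms with their partners; of other lists, the 3 smallest p-values, and further genes were named after their values were seen.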

Additional observations from a re-analysis of the deposited data

How the results depend on the processing

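The direction of each of the 26, 5 and 10 members that passed in the 3 comparisons was the same under the 15 alternatives fitted per gene. Most of these could not have reversed it. The filters, the prior, the block and the choice of arrays in the fit leave a gene's difference unchanged. The groups of these members did not overlap, so leaving out or weighting arrays could not reverse it either. Only quantile normalization again, centring and averaging of probe sets could have. Counts of calls did change. On fibrillar against non-fibrillar collagen, where 26 members were lower, 45 were lower among genes with a mean of 8 or more, 11 after quantile normalization again, 0 at an adjusted p of 0.01 and 0 to 5 with 1 array left out (44 to 50 then had an unadjusted p under 0.05). With the replicate block the count was 18, and 17 of the 26 calls were kept. Of all genes, 150 to 569 passed in either direction with 1 array left out and 1285 with the block, against 1277 in the main fit. On fibrillar collagen against Matrigel, where 5 were lower, the counts were 13 with a mean of 6 or more, 16 with a mean of 8 or more, 13 with a trended robust prior, 2 after quantile normalization again, 1 with the 6 arrays of the pair, 1 at an adjusted p of 0.01, 1 to 2 with 1 array left out and 4 with the block. On non-fibrillar collagen against Matrigel, where 10 were higher and 0 lower, 17 were higher with a mean of 6 or more, 20 with a mean of 8 or more, 16 with the trended prior, 6 after quantile normalization again, 3 at an adjusted p of 0.01, 3 to 10 with 1 array left out and 14 with the block; 1 member, Atp5g3, was lower with a mean of 8 or more and 1 with the trended prior. The filter settings tested fewer genes and the leave-out settings used fewer arrays. Why the counts changed was not tested for any setting. Same-numbered arrays correlated at 0.253, 0.103 and 0.0968 between fibrillar collagen and Matrigel. Between non-fibrillar collagen and Matrigel they correlated at 0.125, 0.0449 and 0.135. The main fits with Matrigel did not use the numbers either. The highest of these values, 0.253, exceeds each value between the collagens, so the correlations do not settle which arrays are paired. With 3 arrays a group, the differences here, at most 1.34-fold between the collagens, lie close to what the test can call.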
